A study of Homo sapiens with 30 samples.

Results

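The 10 genes described here belong to the cell-autonomous circadian clock: PER1, PER2, PER3, CRY1, CRY2, NR1D1, BHLHE40, BHLHE41, DBP and ARNTL. They were chosen by gene symbol, with earlier results of these data known. All 10 were found among the 57373 genes of the count table, and all 10 were among the 18485 genes that passed the filter on low counts. The lowest count of any of them in any library was 95, for DBP.

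RNA was sequenced from U2OS, a human osteosarcoma line that is also a common model cell for circadian rhythms. Each of the 6 groups held 5 libraries. Cells of the dhelix FOXP2 + CHIR group expressed, from a transfected plasmid, a FOXP2 without residues 264 to 272 and were treated with CHIR99021 (CHIR). The WT FOXP2 + CHIR group received the wild-type FOXP2 plasmid and CHIR. The dhelix FOXP2 and WT FOXP2 groups received those plasmids without CHIR, the CHIR group received CHIR without a FOXP2 plasmid, and the mock group was mock-transfected. FOXP2 is a forkhead transcription factor, and CHIR inhibits glycogen synthase kinase 3 (GSK3). CHIR was given at 5 µM from 72 h before transfection, and transfection with 500 ng of plasmid lasted 48 h. Whether the mock transfection included an empty plasmid, and whether CHIR cells were mock-transfected, is not in the labels, so FOXP2 and plasmid DNA cannot be told apart in comparisons with those groups. One harvest time and no step that sets the phase of the clock are given, so a change in the amount of a transcript and a change in its phase cannot be told apart. Nor can fewer cells that express a gene be told apart from less RNA per cell.

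In the mammalian clock, ARNTL (also called BMAL1) pairs with CLOCK or NPAS2, binds E-box sequences and activates the PER and CRY genes. PER and CRY proteins return to the nucleus and repress that activator. BHLHE40 and BHLHE41 (DEC1 and DEC2) compete for E-boxes, NR1D1 (REV-ERBα) represses ARNTL through RORE sequences against the activating ROR receptors, and DBP carries rhythm to outputs through D-box sequences. GSK3 phosphorylates several of these proteins, among them NR1D1, PER2 and CRY2, and thereby alters their stability or localisation.

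The promoters of the members were searched because these elements define the wiring of the loop. RefSeq windows (GRCh38.p14) from 250 bases before to 50 bases after each transcript start were found for 10 of 10 genes, 13 windows in all. The E-box CACGTG was present, on either strand, in the windows of PER1, BHLHE40 and BHLHE41, against 7.26% of all 35116 windows in the table. The D-box TTATGNAA was present in windows of PER1 and PER3, against 3.3% of all windows. The RORE core, searched as TNGGTCA with N open to any letter, was present in windows of CRY2 and ARNTL, against 9.45%. The forkhead motif TGTTTAC matched in the window of CRY1, against 3.42%. The cAMP response element TGACGTCA matched in 0 members (1.85% of all windows), as did the TCF/LEF motif CTTTGAT (2.62%). The motifs share no letters at any of these places, and a match is a description of the letters, not of binding. Other forms of the motifs and bases outside the windows were not searched. A missing match therefore does not show that a gene lacks the element. The 4 stretches shown are the 250 bases before the start of the 3 genes with an E-box and of ARNTL, the target of NR1D1, 5′ to 3′ on the strand of the gene, with matches in capitals. In PER1 (chr17:8152405-8152654, minus strand) the E-box lies at -173 to -168 and the D-box at -30 to -23 relative to the start. In BHLHE40 (chr3:4979187-4979436, plus strand) the E-box lies at -245 to -240. In BHLHE41 (chr12:26125038-26125287, minus strand) it lies at -48 to -43. In ARNTL (chr11:13277540-13277789, plus strand) the pattern TNGGTCA matches at -247 to -241, with T at its open position N (TTGGTCA). This is a match to the loose pattern searched and is not taken as a RORE. Another match (TAGGTCA) lies after the start, at 31 to 37, outside the stretch shown.
PER1: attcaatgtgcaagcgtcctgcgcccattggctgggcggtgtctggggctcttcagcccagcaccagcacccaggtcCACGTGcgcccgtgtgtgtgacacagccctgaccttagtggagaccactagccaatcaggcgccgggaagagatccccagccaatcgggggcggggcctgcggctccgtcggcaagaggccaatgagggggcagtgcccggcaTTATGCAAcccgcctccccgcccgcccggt
BHLHE40: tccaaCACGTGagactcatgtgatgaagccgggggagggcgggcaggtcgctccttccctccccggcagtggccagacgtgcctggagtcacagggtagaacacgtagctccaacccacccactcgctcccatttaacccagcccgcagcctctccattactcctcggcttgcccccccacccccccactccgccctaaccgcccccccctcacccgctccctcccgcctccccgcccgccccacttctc
BHLHE41: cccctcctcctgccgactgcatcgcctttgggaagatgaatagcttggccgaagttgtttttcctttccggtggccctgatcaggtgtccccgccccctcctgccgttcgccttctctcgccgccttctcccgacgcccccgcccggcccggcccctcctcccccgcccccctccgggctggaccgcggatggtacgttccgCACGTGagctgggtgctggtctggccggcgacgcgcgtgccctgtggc
ARNTL: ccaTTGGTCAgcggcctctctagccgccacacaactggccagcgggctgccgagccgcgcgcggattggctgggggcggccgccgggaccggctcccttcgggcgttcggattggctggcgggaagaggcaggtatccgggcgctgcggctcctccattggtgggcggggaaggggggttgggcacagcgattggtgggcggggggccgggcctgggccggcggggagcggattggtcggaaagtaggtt

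Total counts were 15755842 to 29466652 per library. FOXP2 averaged 13481 CPM (counts scaled to library depth) with dhelix FOXP2 + CHIR, 15299 with WT FOXP2 + CHIR, 5319 with dhelix FOXP2 and 7076 with WT FOXP2, against 0.504 with CHIR and 0.898 in mock cells. The FOXP2 constructs therefore also differed in transcript amount: dhelix was lower than WT without CHIR (log2 fold change -0.41 ± 0.08, SE; edgeR adjusted p = 0.000337), and both were higher with CHIR than without. AXIN2, a classic target of Wnt signalling, averaged 145 CPM with CHIR and 20.95 CPM in mock cells. Cell type markers moved with the groups, and their part in the results was not tested. The summed level of 6 osteoblast markers was 733 to 1425 CPM in the FOXP2 groups, 1290 to 1721 CPM with CHIR and 3268 to 3429 CPM in mock cells. Of these, COL1A1 had group means of 171 to 234 CPM with FOXP2, 256 CPM with CHIR and 1308 CPM in mock cells, and SPARC was also highest in mock cells. RUNX2 was highest with CHIR (108 CPM) and lowest with WT FOXP2 (7.91 CPM), ALPL averaged 12.1 to 20.6 CPM in the FOXP2 groups, 2.40 CPM with CHIR and 3.19 CPM in mock cells, and SP7 and COL1A2 stayed under 0.369 CPM. The sum of 6 epithelial markers was 543 to 689 CPM in the FOXP2 groups, 334 to 413 CPM with CHIR and 383 to 428 CPM in mock cells. KRT18 averaged 372 to 481 CPM in the FOXP2 groups, 175 CPM with CHIR and 169.5 CPM in mock cells, while group means of KRT8 were 170.2 to 212 CPM. KRT14 averaged 0.242 to 0.575 CPM with FOXP2, 0.940 CPM with CHIR and 24.8 CPM in mock cells, and CDH1, KRT5 and EPCAM were at most 1.63, 2.62 and 9.01 CPM in any library. The summed level of 4 leukocyte markers was 10.5 to 20.1 CPM in the FOXP2 groups, 2.36 to 3.04 CPM with CHIR and 0.389 to 0.775 CPM in mock cells. Within groups, CHIR replicate 1, dhelix FOXP2 replicate 5 and WT FOXP2 + CHIR replicate 4 differed most from the others. Their chi-square per gene, a mean over pairs with the other libraries of the group, was 28.5, 10.9 and 5.98. The other libraries had means of 7.40 to 10.8, 3.92 to 4.62 and 2.97 to 4.47, which include the pair with the library that stood apart. Pairs without that library were at 1.78 to 4.14, 1.57 to 3.24 and 1.39 to 3.55. Without these 3 libraries the count of members called was the same in 11 of the 12 comparisons.

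Every member differed between groups. The mean of the highest group was 19.7 times that of the lowest for BHLHE41, 6.02 times for NR1D1, 4.66 for DBP, 3.41 for PER1, 3.35 for BHLHE40, 2.48 for PER3, 2.39 for PER2, 1.94 for CRY2, 1.75 for CRY1 and 1.71 for ARNTL. The groups held most of the variance: the share of variance in log2 CPM that lay within groups was 0.307% for BHLHE41 and at most 7.39%, for ARNTL. Levels are CPM on TMM-scaled library sizes, and counts are not scaled by transcript length, so levels are compared between groups and not between genes.

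**Figure D1:**
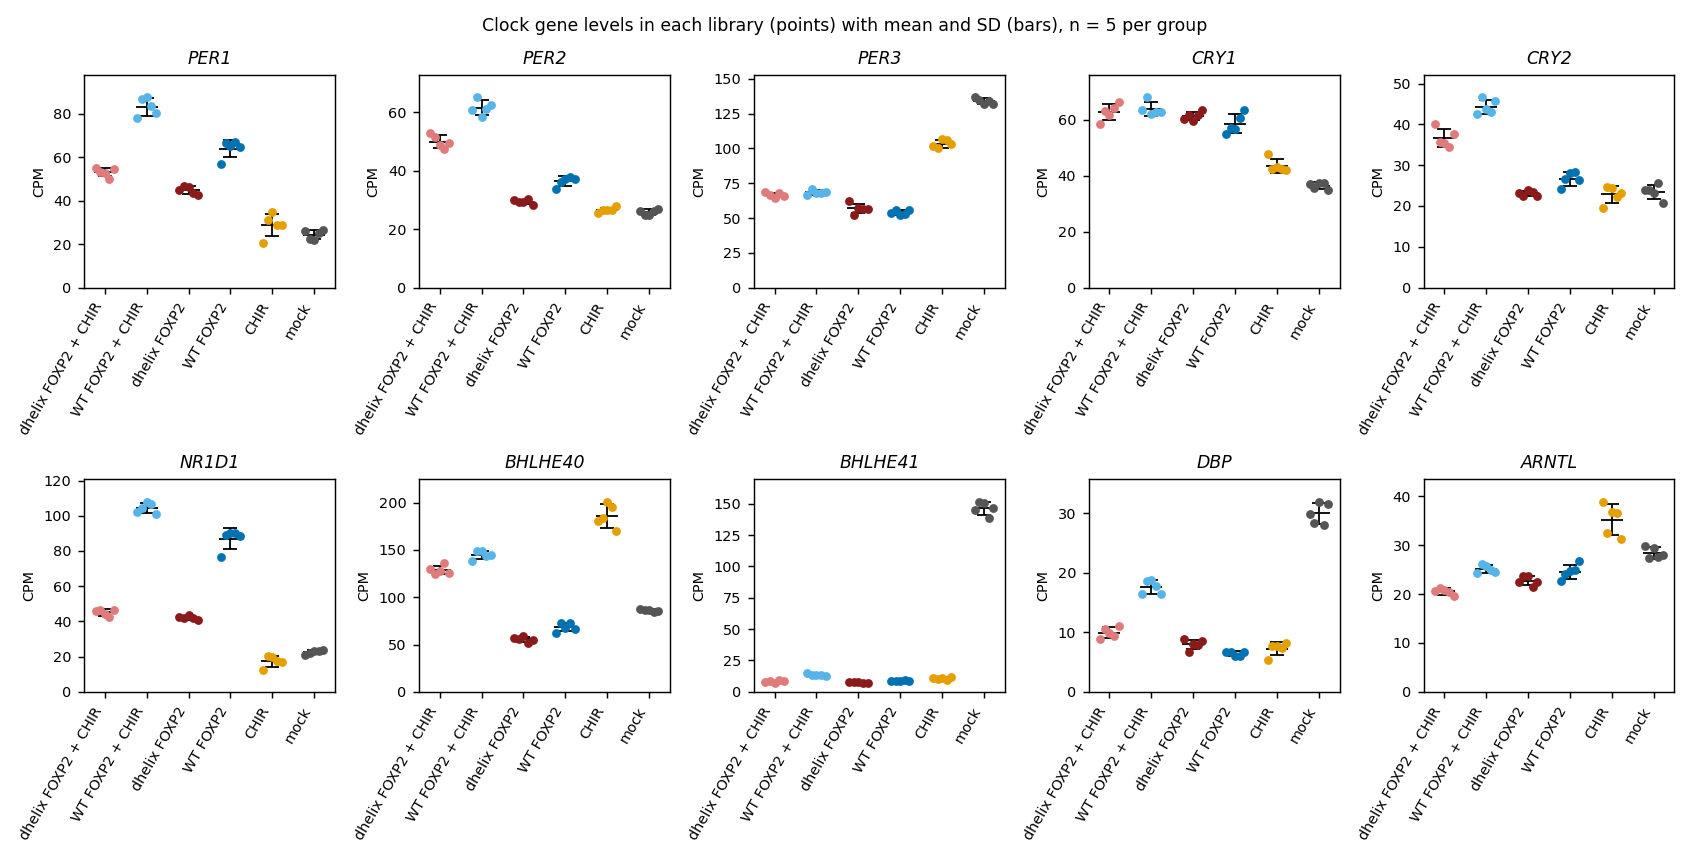
Level in CPM (vertical axes, from 0) of each of the 10 clock genes in the 6 groups (horizontal axes). Points are libraries, and bars give the mean and SD of 5 libraries. BHLHE41 is at 138 to 152 CPM in mock cells and at most 14.8 CPM in the other groups, and NR1D1 is highest in the WT FOXP2 groups.

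ARNTL, the activator, moved within the narrowest range of the 10 and, like BHLHE40, was highest in CHIR cells. ARNTL was at 20.7, 21.3, 20.9, 20.5 and 19.5 CPM with dhelix FOXP2 + CHIR, 24.2, 26.2, 25.7, 24.8 and 24.5 CPM with WT FOXP2 + CHIR, and 22.5, 23.7, 23.7, 21.5 and 22.5 CPM with dhelix FOXP2. It was at 22.7, 24.1, 24.6, 24.9 and 26.7 CPM with WT FOXP2, 38.9, 32.5, 36.9, 36.7 and 31.4 CPM with CHIR, and 29.9, 27.3, 29.5, 27.5 and 27.9 CPM in mock cells. All CHIR libraries were above all mock libraries, and the dhelix FOXP2 + CHIR libraries were below those of every other group. The libraries of WT FOXP2 + CHIR and WT FOXP2 overlapped, as did those of WT FOXP2 and dhelix FOXP2. ARNTL was higher with CHIR than in mock cells (0.31 ± 0.05, edgeR adjusted p = 1.58e-06; here and below, changes are log2 fold changes ± SE). It was lower than in mock cells with WT FOXP2 (-0.21 ± 0.05, adjusted p = 0.000629) and dhelix FOXP2 (-0.32 ± 0.05, adjusted p = 8.08e-07).

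The PER genes did not move as a block. PER1 and PER2 rose with either construct, while PER3 fell. PER1 was at 55.3, 53.4, 52.7, 50.1 and 54.7 CPM with dhelix FOXP2 + CHIR, 78.1, 87.0, 87.7, 83.5 and 80.2 CPM with WT FOXP2 + CHIR, and 45.1, 46.7, 46.5, 43.4 and 42.9 CPM with dhelix FOXP2. It was at 57.0, 66.5, 65.04, 67.2 and 64.7 CPM with WT FOXP2, 20.6, 31.3, 34.7, 28.7 and 28.8 CPM with CHIR, and 26.0, 22.4, 21.97, 25.0 and 26.6 CPM in mock cells. The 4 FOXP2 groups did not overlap each other or the groups without FOXP2, and only CHIR and mock cells overlapped. PER1 rose by 1.40 ± 0.08 with WT FOXP2 (adjusted p = 1.39e-18) and by 0.89 ± 0.08 with dhelix FOXP2 (adjusted p = 6.12e-13) against mock cells. The small rise with CHIR alone, 0.25 ± 0.08 (adjusted p = 0.0068), was not called without CHIR replicate 3 (0.13, adjusted p = 0.118), without mock replicate 2 (0.19, adjusted p = 0.0514) or with the compared groups fitted alone (0.21, adjusted p = 0.109).

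PER2, whose protein GSK3 is known to phosphorylate, rose with CHIR in FOXP2 cells and was not called for CHIR against mock cells, a difference tested as an interaction further on. PER2 was at 52.9, 51.5, 48.8, 47.5 and 49.5 CPM with dhelix FOXP2 + CHIR, 60.7, 65.2, 58.3, 61.2 and 62.7 CPM with WT FOXP2 + CHIR, and 29.9, 29.2, 29.2, 30.2 and 28.4 CPM with dhelix FOXP2. It was at 33.6, 36.2, 37.3, 37.9 and 37.1 CPM with WT FOXP2, 25.6, 26.7, 26.4, 26.4 and 27.9 CPM with CHIR, and 26.3, 24.7, 24.9, 26.1 and 27.0 CPM in mock cells. As for PER1, the CHIR and mock libraries were the only ones that overlapped. PER3 was highest in mock cells, at 132 to 137 CPM, and lower in CHIR cells, at 100.1 to 107 CPM. The FOXP2 groups lay below both, at 64.6 to 68.4 CPM with dhelix FOXP2 + CHIR, 66.7 to 71.1 CPM with WT FOXP2 + CHIR, 52.4 to 62.1 CPM with dhelix FOXP2 and 52.4 to 55.8 CPM with WT FOXP2. Constructs overlapped with and without CHIR. PER3 fell by 1.31 ± 0.04 with WT FOXP2 (adjusted p = 4.89e-28), and its change was -1.23 ± 0.04 with dhelix FOXP2 (adjusted p = 1.97e-27) and -0.37 ± 0.04 with CHIR alone (adjusted p = 6.05e-12).

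CRY1 and CRY2 are the partners of the PER proteins in repression. CRY1 averaged 62.8 ± 2.89 CPM with dhelix FOXP2 + CHIR, 63.8 ± 2.40 with WT FOXP2 + CHIR, 61.4 ± 1.52 with dhelix FOXP2 and 58.5 ± 3.39 with WT FOXP2, against 43.5 ± 2.44 with CHIR and 36.5 ± 1.19 in mock cells (SD, n = 5 each). Its 4 FOXP2 groups formed a chain in which neighbours overlapped. CRY2 was at 40.1, 35.6, 35.4, 34.5 and 37.6 CPM with dhelix FOXP2 + CHIR, 42.5, 46.6, 43.8, 43.1 and 45.7 CPM with WT FOXP2 + CHIR, and 23.3, 22.4, 23.9, 23.5 and 22.3 CPM with dhelix FOXP2. It was at 24.1, 26.5, 28.1, 28.2 and 26.3 CPM with WT FOXP2, 19.6, 24.7, 24.5, 22.3 and 23.2 CPM with CHIR, and 23.9, 23.9, 23.2, 25.6 and 20.7 CPM in mock cells. Only the groups that combined FOXP2 and CHIR stood apart from the rest, and neighbours among the other 4 overlapped. CRY1 rose by 0.68 ± 0.04 with WT FOXP2 (adjusted p = 1.21e-16) and by 0.75 ± 0.04 with dhelix FOXP2 (adjusted p = 5.69e-18). It also rose with CHIR alone, by 0.25 ± 0.05 (adjusted p = 5.68e-06), and the CHIR and mock libraries did not overlap. CRY2 changed by 0.18 ± 0.06 with WT FOXP2 (adjusted p = 0.00433), while the difference with dhelix FOXP2 was -0.02 (adjusted p = 0.716) and that with CHIR was -0.04 (adjusted p = 0.576).

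BHLHE40 and BHLHE41 encode closely related repressors of E-box genes. Against mock cells CHIR moved their transcripts in opposite directions, whereas in WT FOXP2 cells both rose with CHIR. BHLHE40 was at 130.2, 124, 128, 136 and 126 CPM with dhelix FOXP2 + CHIR, 138, 148, 149, 144 and 144 CPM with WT FOXP2 + CHIR, and 56.4, 56.2, 58.6, 51.4 and 55.2 CPM with dhelix FOXP2. It was at 62.4, 72.9, 68.0, 72.5 and 66.0 CPM with WT FOXP2, 181, 183, 201, 195 and 169.7 CPM with CHIR, and 87.4, 86.4, 86.8, 84.3 and 85.4 CPM in mock cells. No neighbouring groups overlapped, and each CHIR group was above all 3 groups without CHIR. The rise with CHIR was 1.21 ± 0.04 with dhelix FOXP2 (adjusted p = 1.72e-23), 1.08 ± 0.04 with WT FOXP2 (adjusted p = 4.53e-22) and 1.11 ± 0.04 without a FOXP2 plasmid (adjusted p = 2.67e-23). It was lower than in mock cells with both constructs, at -0.63 ± 0.04 with dhelix FOXP2 (adjusted p = 1.07e-15) and -0.33 ± 0.04 with WT FOXP2 (adjusted p = 1.62e-08).

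BHLHE41 had the largest fold changes of the 10. It was at 7.70, 8.33, 7.01, 9.21 and 8.55 CPM with dhelix FOXP2 + CHIR, 14.8, 13.8, 13.2, 13.8 and 12.5 CPM with WT FOXP2 + CHIR, and 7.44, 7.78, 7.61, 7.11 and 7.29 CPM with dhelix FOXP2. It was at 8.36, 8.28, 8.38, 9.08 and 8.43 CPM with WT FOXP2, 10.99, 10.3, 11.3, 9.67 and 11.96 CPM with CHIR, and 145, 152, 150.3, 138 and 147 CPM in mock cells. Mock cells stood far above all other groups. Below them WT FOXP2 + CHIR and then CHIR were each separate, and WT FOXP2, dhelix FOXP2 + CHIR and dhelix FOXP2 overlapped with their neighbours. Against mock cells BHLHE41 fell in all 3 groups with 1 treatment, with a log2 fold change of -3.75 ± 0.05 with CHIR (adjusted p = 1.37e-36), -4.10 ± 0.05 with WT FOXP2 (adjusted p = 1.13e-37) and -4.30 ± 0.05 with dhelix FOXP2 (adjusted p = 1.8e-38). These 3 comparisons share the mock libraries. COL1A1 and KRT14, as given above, were also highest in mock cells.

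NR1D1, the REV-ERBα repressor whose protein is stabilised by GSK3 activity, was the member that rose most with FOXP2 and the one that most separated the constructs. It was at 46.0, 46.7, 44.1, 42.3 and 46.5 CPM with dhelix FOXP2 + CHIR, 102, 105, 108, 106 and 101 CPM with WT FOXP2 + CHIR, and 42.6, 42.2, 43.5, 41.7 and 40.5 CPM with dhelix FOXP2. It was at 76.6, 89.2, 90.4, 90.4 and 88.5 CPM with WT FOXP2, 12.2, 20.3, 19.7, 17.6 and 16.9 CPM with CHIR, and 20.7, 22.2, 23.4, 23.0 and 23.8 CPM in mock cells. The WT FOXP2 libraries were all above the dhelix FOXP2 libraries, which were all above the mock libraries, and only the dhelix groups with and without CHIR overlapped. NR1D1 rose by 1.94 ± 0.07 with WT FOXP2 (adjusted p = 5.25e-25) and by 0.90 ± 0.07 with dhelix FOXP2 (adjusted p = 1.44e-14). With CHIR alone it fell by 0.39 ± 0.08 (adjusted p = 2.94e-05), and without CHIR replicate 1, its lowest library, the change was -0.31 (adjusted p = 3.68e-06).

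DBP, the D-box output factor, was highest in mock cells and came back in part where WT FOXP2 and CHIR were combined. It was at 8.81, 10.6, 9.87, 9.37 and 10.97 CPM with dhelix FOXP2 + CHIR, 16.4, 18.5, 18.8, 17.8 and 16.4 CPM with WT FOXP2 + CHIR, and 8.88, 6.76, 7.95, 7.79 and 8.45 CPM with dhelix FOXP2. It was at 6.76, 6.73, 5.94, 6.02 and 6.67 CPM with WT FOXP2, 5.29, 7.65, 7.73, 7.33 and 8.15 CPM with CHIR, and 29.9, 28.4, 31.9, 28.1 and 31.6 CPM in mock cells. Mock and WT FOXP2 + CHIR libraries were separate from the rest, and neighbours among the lower 4 groups overlapped. Against mock cells DBP fell likewise, at -2.06 ± 0.08 with CHIR (adjusted p = 3.87e-23), -2.22 ± 0.08 with WT FOXP2 (adjusted p = 1.74e-24) and -1.92 ± 0.07 with dhelix FOXP2 (adjusted p = 2.32e-23).

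Some members overlap a protein-coding gene on the opposite strand in GENCODE 29, and the strand setting of the counting is not given in the sources used here. The shared exon bases were 9.49% of the exons of NR1D1 (with THRA), 4.1% for BHLHE41 (with SSPN), 10.1% for DBP (with SPHK2) and 10.7% for PER3 (with UTS2, which was too low to test). THRA was at 10.4 to 65.01 CPM (group means). Against mock cells it fell with WT FOXP2 (-1.92 ± 0.06, adjusted p = 5.14e-26) and dhelix FOXP2 (-1.87 ± 0.06, adjusted p = 5.03e-26), where NR1D1 rose, and with CHIR (-1.77 ± 0.06, adjusted p = 1.23e-24), where NR1D1 fell too. Its interactions with CHIR were 1.04 ± 0.10 for WT FOXP2 (adjusted p = 6.77e-12) and 1.11 ± 0.10 for dhelix FOXP2 (adjusted p = 1.17e-12), of the same sign as those of NR1D1 given further on. SSPN was at 0.531 to 12.1 CPM (group means) and moved in the direction of BHLHE41 against mock cells, at -2.88 ± 0.11 with CHIR (adjusted p = 5.08e-23), -3.92 ± 0.13 with WT FOXP2 (adjusted p = 5.06e-26) and -3.58 ± 0.11 with dhelix FOXP2 (adjusted p = 4.15e-26). The interactions of SSPN with CHIR were 2.31 ± 0.27 for WT FOXP2 (adjusted p = 2.11e-09) and 2.59 ± 0.24 for dhelix FOXP2 (adjusted p = 6.66e-12), of the same sign as those of BHLHE41. Against CHIR cells SSPN fell with WT FOXP2 + CHIR (-1.62 ± 0.20, adjusted p = 2.25e-09), where BHLHE41 rose. It also fell with dhelix FOXP2 + CHIR (-0.99 ± 0.18, adjusted p = 9.05e-06), where BHLHE41 fell too. SPHK2 was at 13.3 to 16.4 CPM (group means), and its changes against mock cells were 0.20 to 0.25, where DBP fell. The part of these neighbours in the members' counts was not tested.

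**Figure D2:**
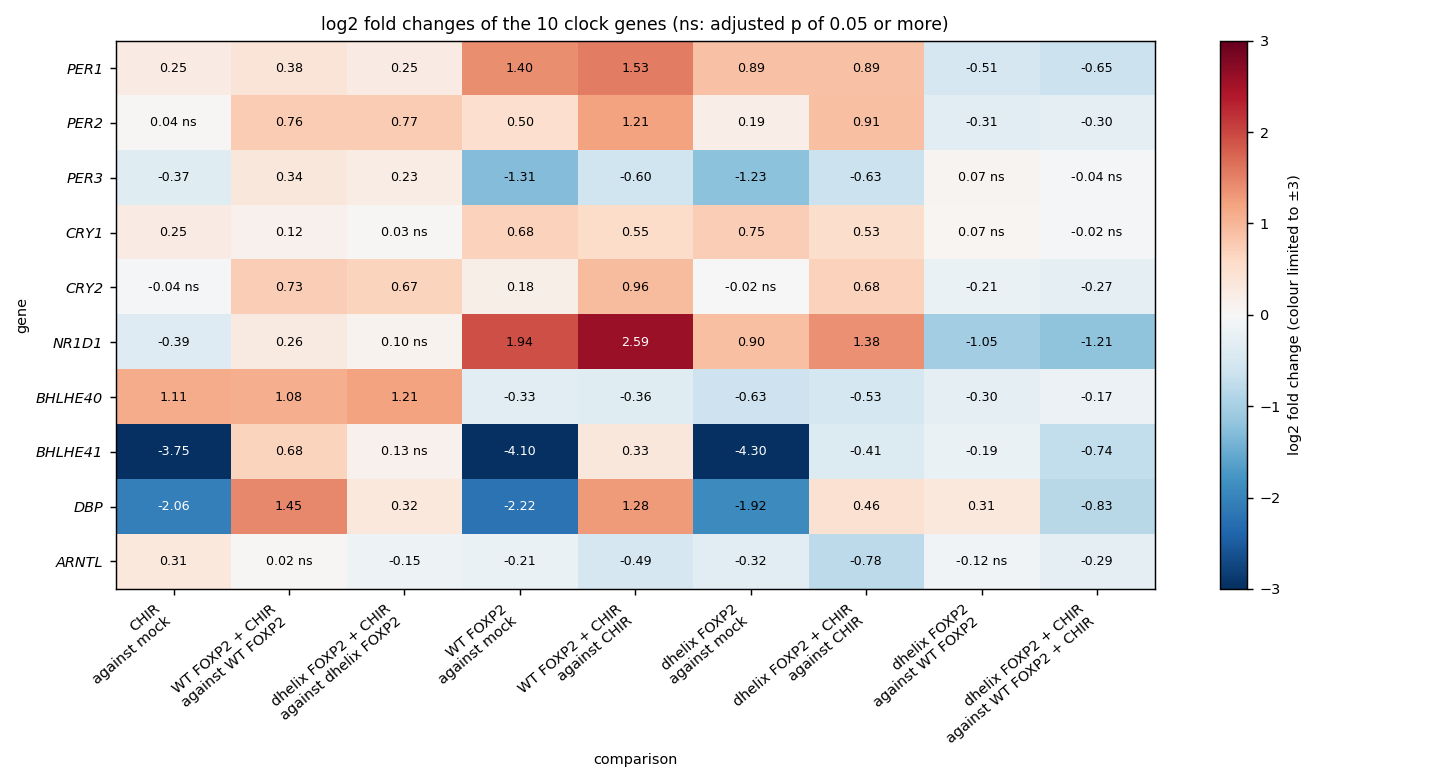
The log2 fold change of each clock gene (down) in 9 comparisons of pairs of groups (across), with colour limited to ±3 and ns where the adjusted p was 0.05 or more. The columns for CHIR, WT FOXP2 and dhelix FOXP2 against mock cells hold the deepest falls, for BHLHE41 (-3.75, -4.10 and -4.30), and NR1D1 has the largest rise (2.59, WT FOXP2 + CHIR against CHIR).

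CHIR against mock cells sets GSK3 inhibition without a FOXP2 plasmid beside mock transfection, and a difference in transfection between them cannot be told apart from it. BHLHE40, ARNTL, CRY1 and PER1 were higher with CHIR, and BHLHE41, DBP, NR1D1 and PER3 were lower. In all 8 of 10 members were called, 4 in each direction, where 74.1% of all tested genes were called (38.8% higher, 35.3% lower), so the share is near that of genes at large. PER2 and CRY2 were not called. The median size of change, whatever its sign, was 0.34 for the members and 0.47 for all genes.

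WT FOXP2 against mock cells raised NR1D1, PER1, CRY1, PER2 and CRY2 and lowered BHLHE41, DBP, PER3, BHLHE40 and ARNTL. With 10 of 10 members called, 5 in each direction, against 81.6% of all genes (39.9% higher, 41.6% lower), the count is not far from the background. The median size of change was 1.00 for the members and 0.64 for all genes. With dhelix FOXP2, 9 of 10 members were called (80.5% of all genes; 39.6% higher, 40.9% lower), 4 higher and 5 lower: NR1D1, PER1, CRY1 and PER2 were higher, and BHLHE41, DBP, PER3, BHLHE40 and ARNTL lower. The comparisons of WT FOXP2 and dhelix FOXP2 share the mock libraries. The median size of change with dhelix FOXP2 was 0.82 for the members and 0.59 for all genes.

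Set against CHIR cells, FOXP2 gave another picture for BHLHE41 and DBP. With WT FOXP2 + CHIR, 10 of 10 members were called (78.4% of all genes; 38.2% higher, 40.2% lower), 7 higher and 3 lower. NR1D1 rose by 2.59 ± 0.07 (adjusted p = 8.34e-28), PER1 by 1.53 ± 0.07 (adjusted p = 1.2e-19), DBP by 1.28 ± 0.08 (adjusted p = 2.47e-16), PER2 by 1.21 ± 0.04 (adjusted p = 1.54e-24) and CRY2 by 0.96 ± 0.06 (adjusted p = 1.72e-17). PER3, ARNTL and BHLHE40 fell, at -0.60, -0.49 and -0.36. BHLHE41, already low with CHIR, was 0.33 ± 0.06 higher (adjusted p = 1.05e-05). With dhelix FOXP2 + CHIR, 10 of 10 members were called (75.9% of all genes; 37% higher, 38.9% lower), 6 higher and 4 lower. NR1D1 rose by 1.38 ± 0.07 (adjusted p = 6.79e-19) and PER2 by 0.91 ± 0.04 (adjusted p = 2.03e-20), whereas BHLHE41 changed by -0.41 ± 0.07 (adjusted p = 1.35e-06). Both comparisons share the CHIR libraries.

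In cells with a FOXP2 construct, most of the 10 members were higher with CHIR. With WT FOXP2, 9 of 10 members were called and all 9 were higher with CHIR, where 64.9% of all genes were called, 34.8% higher and 30.2% lower. DBP rose by 1.45 ± 0.08 (adjusted p = 2.13e-17), BHLHE40 by 1.08, PER2 by 0.76 ± 0.04 (adjusted p = 2.43e-18), CRY2 by 0.73 ± 0.06 (adjusted p = 4.19e-14) and BHLHE41 by 0.68 ± 0.06 (adjusted p = 7.26e-12). ARNTL, at 0.02, was not called. The median change was 0.53 for the members and 0.04 for all genes. The smallest call, CRY1 at 0.12 ± 0.04 (adjusted p = 0.0124), was lost without WT FOXP2 + CHIR replicate 2 (0.08, adjusted p = 0.112), without WT FOXP2 replicate 1, 2 or 3 (0.09 to 0.10, adjusted p = 0.0678 to 0.0972) and with no filter (0.09, adjusted p = 0.18).

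With dhelix FOXP2, CHIR raised 6 members and lowered 1, so 7 of 10 were called (63.2% of all genes; 34.1% higher, 29.1% lower). BHLHE40 rose by 1.21, PER2 by 0.77 ± 0.04 (adjusted p = 2.58e-18), CRY2 by 0.67 ± 0.06 (adjusted p = 7.6e-13) and DBP by 0.32 ± 0.09 (adjusted p = 0.00148). PER1 and PER3 rose by 0.25 ± 0.07 and 0.23 ± 0.04 (adjusted p = 0.00335 and 1.5e-06), and by 0.16 and 0.14 with no filter. ARNTL fell by 0.15 ± 0.05 (adjusted p = 0.0186), a call that was lost without dhelix FOXP2 + CHIR replicate 5 (-0.13, adjusted p = 0.0535), and the value was -0.24 with no filter. In this comparison the median shift of all tested genes with no filter was -0.0895. BHLHE41, at 0.13 (adjusted p = 0.0907), was called without dhelix FOXP2 + CHIR replicate 3 (0.18, adjusted p = 0.0314). The median change was 0.24 for the members and 0.04 for all genes. FOXP2 transcript itself was higher in both FOXP2 + CHIR groups than without CHIR, and the part of this in the members' values was not tested.

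The difference between these responses was tested directly as an interaction: the CHIR effect in FOXP2 cells minus that in cells without a FOXP2 plasmid. For WT FOXP2 it was called for 7 of 10 members (65.6% of all genes; 30.7% positive, 34.9% negative), 6 positive and 1 negative. It was 4.43 ± 0.08 for BHLHE41 (adjusted p = 4.38e-32) and 3.51 ± 0.12 for DBP (adjusted p = 1.27e-24). Like PER3 and NR1D1, both fell with CHIR alone and rose with CHIR in WT FOXP2 cells. CRY2 (0.77 ± 0.08, adjusted p = 2.2e-10), PER2 (0.71 ± 0.06, adjusted p = 8.97e-13), PER3 (0.71 ± 0.05, adjusted p = 8.69e-15) and NR1D1 (0.65 ± 0.10, adjusted p = 4.14e-07) followed, and ARNTL was negative (-0.29 ± 0.07, adjusted p = 0.000985). BHLHE40, at -0.03 (adjusted p = 0.654), PER1, at 0.13 (adjusted p = 0.288), and CRY1, at -0.13 (adjusted p = 0.0632), were not called. PER1 was called without CHIR replicate 3 (0.23, adjusted p = 0.0371), and CRY1 without CHIR replicate 2 or WT FOXP2 + CHIR replicate 2 (-0.15 in both, adjusted p = 0.0455 and 0.0487). For dhelix FOXP2 it was called for 8 of 10 members (64.8% of all genes; 31.2% positive, 33.7% negative), 6 positive and 2 negative, with BHLHE41 at 3.88 ± 0.09 (adjusted p = 2.93e-29), DBP at 2.37 ± 0.12 (adjusted p = 2.79e-19) and CRY1 called at -0.22 ± 0.06 (adjusted p = 0.00226). BHLHE40, at 0.10 (adjusted p = 0.146), was called without CHIR replicate 4 (0.15, adjusted p = 0.0406) and at a minimum mean of 1 CPM (0.15, adjusted p = 0.029). The median interaction was 0.68 for the members with WT FOXP2 and 0.54 with dhelix FOXP2, against -0.02 and 0.00 for all genes. Both tests share the CHIR and mock libraries.

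**Figure D3:**
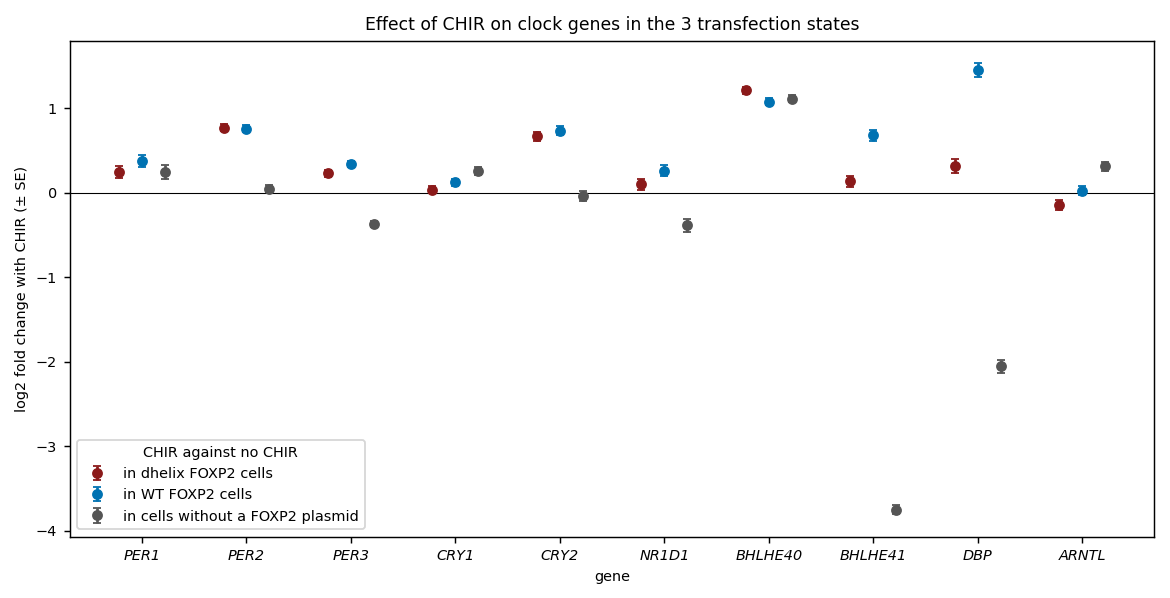
The log2 fold change with CHIR (vertical axis, ± SE, 5 libraries per group) of each clock gene in dhelix FOXP2 cells, WT FOXP2 cells and cells without a FOXP2 plasmid. BHLHE40 rises by 1.08 to 1.21 in all 3, while BHLHE41 and DBP lie at -3.75 and -2.06 without a FOXP2 plasmid and at 0.68 and 1.45 in WT FOXP2 cells.

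The series also asked what removing residues 264 to 272 does to the action of FOXP2. Without CHIR, dhelix FOXP2 gave lower levels than WT FOXP2 for 6 members and a higher level for 1, so 7 of 10 were called (35.6% of all genes; 16.9% higher, 18.7% lower). NR1D1 changed by -1.05 ± 0.06 (adjusted p = 1.51e-15), with 42.1 CPM in dhelix FOXP2 cells and 87.0 CPM in WT FOXP2 cells. PER1 changed by -0.51 ± 0.07 (adjusted p = 4.65e-07), PER2 by -0.31 ± 0.04 (adjusted p = 2.58e-07), BHLHE40 by -0.30 ± 0.04 (adjusted p = 1.59e-06) and CRY2 by -0.21 ± 0.06 (adjusted p = 0.00408). DBP was higher by 0.31 ± 0.09 (adjusted p = 0.00682). BHLHE41 was called at -0.19 ± 0.07 (adjusted p = 0.0198), and the call was lost without dhelix FOXP2 replicate 4 or 5 or WT FOXP2 replicate 4 (adjusted p = 0.0667, 0.0518 and 0.0697). With no filter both BHLHE41 and CRY2 missed the threshold (adjusted p = 0.25 and 0.0515), and the median shift of all tested genes was 0.0437. PER3, at 0.07 (adjusted p = 0.125), was called without dhelix FOXP2 replicate 2 (0.11, adjusted p = 0.0192). The median change was -0.20 for the members and 0.00 for all genes. FOXP2 transcript was also lower with dhelix FOXP2 than with WT FOXP2, as given above, and the protein's sequence and its amount cannot be told apart here.

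With CHIR, dhelix FOXP2 gave lower levels than WT FOXP2 for 8 of 10 members and higher levels for 0 (30.6% of all genes were called; 16.6% higher, 13.9% lower). NR1D1 changed by -1.21 ± 0.06 (adjusted p = 8.43e-17), DBP by -0.83 ± 0.08 (adjusted p = 4.47e-10), BHLHE41 by -0.74 ± 0.06 (adjusted p = 3.85e-11) and PER1 by -0.65 ± 0.07 (adjusted p = 7.87e-09). PER2, ARNTL, CRY2 and BHLHE40 were at -0.30, -0.29, -0.27 and -0.17. PER3 and CRY1, at -0.04 and -0.02, were not called. Here the FOXP2 transcript differed by -0.18 ± 0.08 (adjusted p = 0.106). The median change was -0.29 for the members and 0.01 for all genes.

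Whether the deletion altered the CHIR response was tested as dhelix minus WT FOXP2. It was called for 2 of 10 members (14.2% of all genes; 8.93% positive, 5.29% negative): DBP at -1.13 ± 0.12 (adjusted p = 2.7e-08) and BHLHE41 at -0.55 ± 0.09 (adjusted p = 7.66e-05). DBP thus rose less with CHIR in dhelix FOXP2 cells (0.32) than in WT FOXP2 cells (1.45), as did BHLHE41 (0.13, not called, and 0.68). NR1D1, at -0.16 (adjusted p = 0.237), was called without the 3 libraries that stood apart (-0.19, adjusted p = 0.0178), with no filter (-0.23, adjusted p = 0.0463) and with the 4 groups fitted alone (-0.18, adjusted p = 0.0107). In the last of these ARNTL was called too (-0.19, adjusted p = 0.0399). PER3, at -0.11 (adjusted p = 0.156), was called without dhelix FOXP2 replicate 2 (-0.16, adjusted p = 0.0325).

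**Figure D4:**
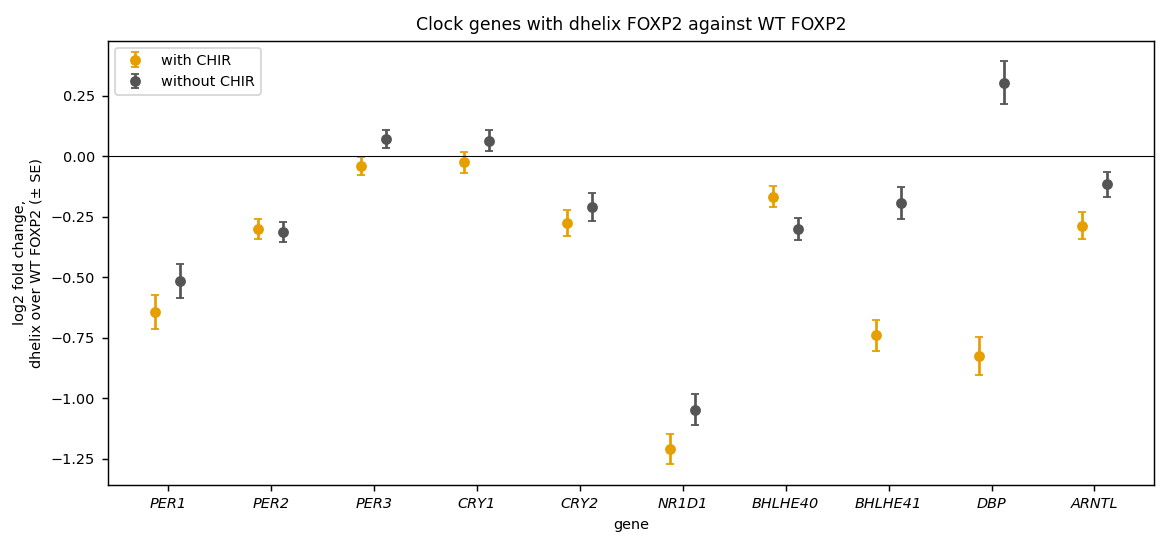
The log2 fold change of dhelix FOXP2 over WT FOXP2 (vertical axis, ± SE, 5 libraries per group) for each clock gene with and without CHIR. NR1D1 is lowest in both (-1.21 and -1.05), and DBP lies on opposite sides of 0 (-0.83 with CHIR and 0.31 without).

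A list of 23 other clock genes was counted alongside, of which 21 could be tested (FBXL21 and USP2 were too low). With CHIR against mock cells, 20 of 21 were called, 13 higher and 7 lower, against 74.1% of all genes (38.8% higher, 35.3% lower). RORA, the receptor that activates RORE genes, rose by 1.88 ± 0.10, to 81.4 CPM with CHIR against 22.05 CPM in mock cells. NFIL3, a repressor at D-boxes, rose by 1.29 ± 0.06, to 44.8 CPM against 18.2 CPM. NPAS2, the alternative partner of ARNTL, fell by 1.79 ± 0.05, to 10.4 CPM against 36.1 CPM, and RORB fell by 1.24 ± 0.12. The weakly expressed C1orf51 (CIART, a repressor of the ARNTL complex) fell by 2.18 ± 0.35, and HLF, a relative of DBP, rose by 1.01 ± 0.29, both at under 1 CPM on average.

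For WT FOXP2 against mock cells 15 of the 21 were called (71.4%), 9 higher and 6 lower, a smaller share than the 81.6% of all genes (39.9% higher, 41.6% lower). ARNTL2, the paralogue of ARNTL, rose by 1.41 ± 0.06, to 148 CPM with WT FOXP2 against 55.8 CPM in mock cells. NPAS2 rose by 1.00 ± 0.04 and TIPIN, the partner of TIMELESS, by 0.98 ± 0.06. RORB, RORA and TIMELESS fell, at -2.82 ± 0.15, -1.06 ± 0.11 and -0.93 ± 0.04. With dhelix FOXP2, 16 were called, 8 in each direction (80.5% of all genes; 39.6% higher, 40.9% lower). RORB, RORA, TIMELESS and TEF, a relative of DBP, fell, at -2.68, -0.92, -0.83 and -0.80, and ARNTL2 and TIPIN rose by 1.05 and 0.81. All these values have edgeR adjusted p below the threshold of 0.05.

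Set against CHIR cells, 17 of the 21 were called with WT FOXP2 + CHIR, 6 higher and 11 lower, where 78.4% of all genes were called (38.2% higher, 40.2% lower). With dhelix FOXP2 + CHIR 19 were called, 5 higher and 14 lower, where 75.9% of all genes were called (37% higher, 38.9% lower). RORA fell by 2.74 ± 0.10 with WT FOXP2 + CHIR, to 12.2 CPM against 81.4 CPM with CHIR alone, and was at -2.44 with dhelix FOXP2 + CHIR. With WT FOXP2 + CHIR, RORB, TIMELESS, NR1D2 (the paralogue of NR1D1) and CLOCK fell, at -1.33, -1.30, -1.02 and -0.82. With dhelix FOXP2 + CHIR, NR1D2, TIMELESS, RORB and NFIL3 fell, at -1.14, -1.10, -0.88 and -0.85. C1orf51 rose by 3.26 and 2.44 in these comparisons, to 1.21 and 0.691 CPM against 0.122 CPM with CHIR. ARNTL, the partner of CLOCK, fell in the same comparisons. In CHIR replicate 1, a library that stood apart, RORA was at 110 CPM, against 65.6 to 85.8 CPM in the other CHIR libraries. NR1D2 was at 206 CPM there against 138 to 152 CPM, and ARNTL2 at 93.9 CPM against 67.5 to 75.3 CPM. Leaving out libraries and the other alternatives were examined for the members only, not for the 21 genes.

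With CHIR in WT FOXP2 cells 18 of the 21 were called, 6 higher and 12 lower (64.9% of all genes; 34.8% higher, 30.2% lower), whereas the called members were all higher. NPAS2 fell by 2.19 ± 0.05, to 15.8 CPM with CHIR against 72.3 CPM without. ARNTL2, TIMELESS and NR1D2 fell too, at -1.36, -0.73 and -0.68, while C1orf51 and HLF rose by 1.504 and 1.32. In dhelix FOXP2 cells 15 were called, 7 higher and 8 lower (63.2% of all genes; 34.1% higher, 29.1% lower). NPAS2, ARNTL2, NR1D2 and TIMELESS fell, at -1.90, -0.85, -0.75 and -0.63, and HLF and C1orf51 rose by 0.92 and 0.88. NPAS2 was thus lower with CHIR in all 3 transfection states. In the test of the interaction with CHIR, 16 of the 21 were called for WT FOXP2, 3 positive and 13 negative (65.6% of all genes; 30.7% positive, 34.9% negative). C1orf51 and RORB were positive, at 3.68 and 1.49, and ARNTL2, RORA, NR1D2 and NFIL3 were negative, at -1.80, -1.68, -1.15 and -0.94. For dhelix FOXP2 16 were called, 4 positive and 12 negative (64.8% of all genes; 31.2% positive, 33.7% negative), with C1orf51, RORB, RORA, ARNTL2, NR1D2 and NFIL3 at 3.06, 1.80, -1.52, -1.29, -1.21 and -0.79. The median over the 21 was -0.38 with WT FOXP2 and -0.24 with dhelix FOXP2, below 0, where that of the 10 members lay above 0. Members and list were chosen with earlier results of these data known, so these medians are a description and not an independent contrast.

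Between constructs without CHIR, 12 of the 21 were called, 1 higher and 11 lower with dhelix FOXP2 than with WT FOXP2, where 35.6% of all genes were called (16.9% higher, 18.7% lower). The median size of change was 0.15 for the 21 and 0.16 for all genes. ARNTL2, NFIL3 and NPAS2 led at -0.36, -0.34 and -0.34, and GSK3A, TIPIN and CLOCK were at -0.18 to -0.17. With CHIR 10 were called, 5 in each direction (30.6% of all genes; 16.6% higher, 13.9% lower), with C1orf51, TEF, NFIL3 and SIRT1 at -0.82, -0.58, -0.19 and -0.18 and RORA and TIMELESS at 0.30 and 0.20. For the deletion's interaction with CHIR 7 were called, 6 positive and 1 negative (14.2% of all genes; 8.93% positive, 5.29% negative). ARNTL2, CLOCK, NPAS2, NONO and FBXW11 were positive, at 0.51, 0.31, 0.29, 0.22 and 0.22, and TEF, like DBP, was negative, at -0.45.

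**Figure D5:**
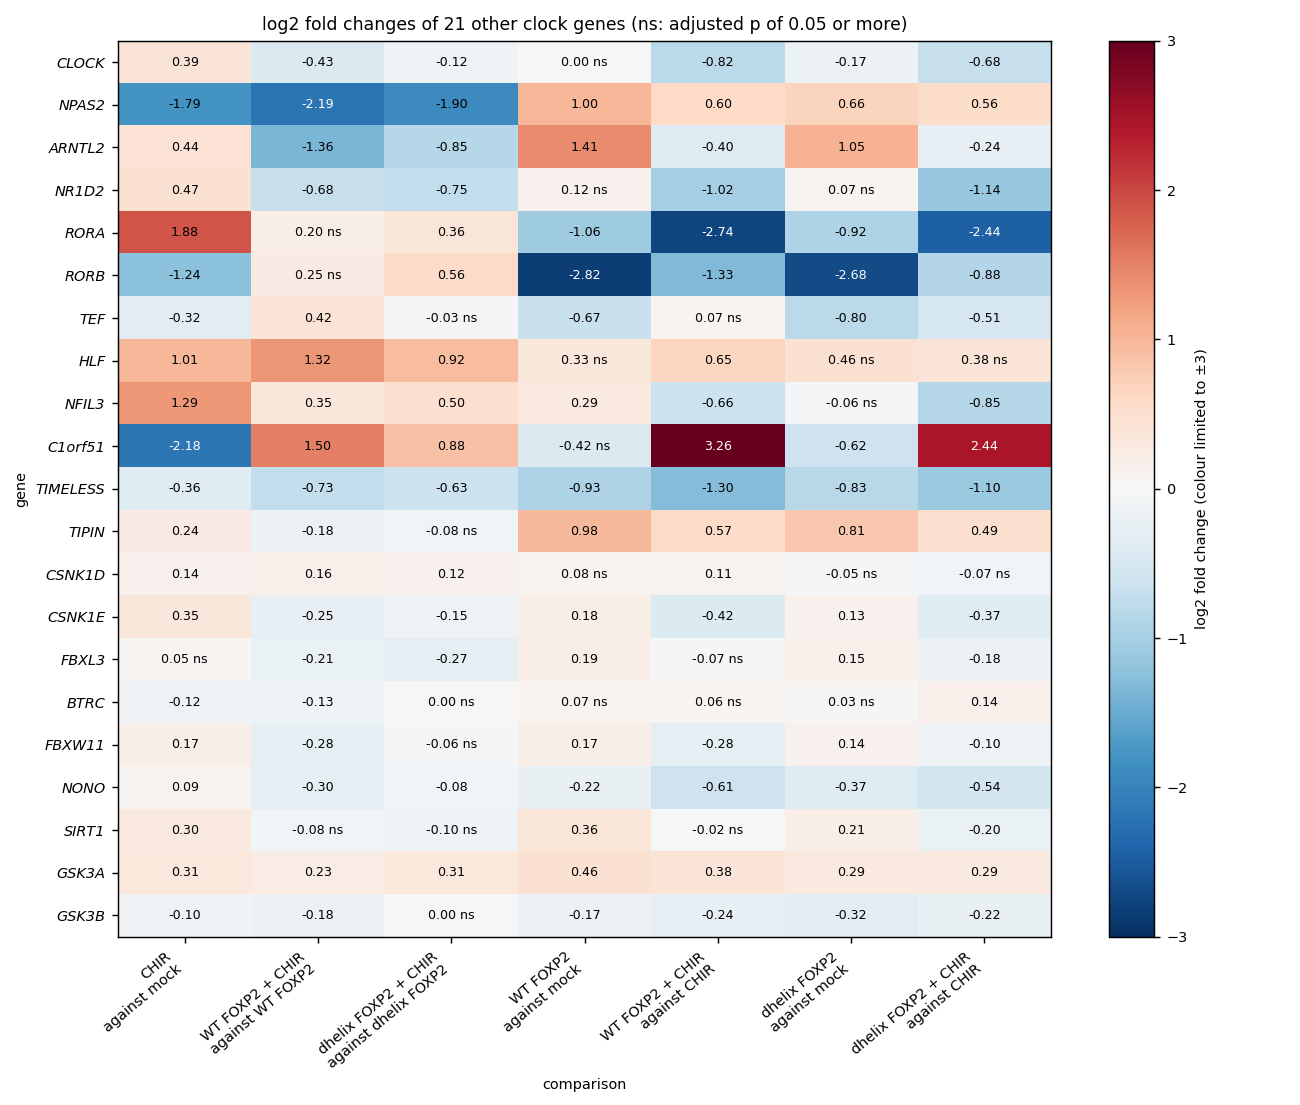
The log2 fold change of 21 other clock genes (down) in 7 comparisons (across), with colour limited to ±3 and ns where the adjusted p was 0.05 or more. NPAS2 is lower with CHIR in the 3 CHIR columns (-1.79, -2.19 and -1.90) and higher with either construct, and RORA rises with CHIR alone (1.88) and falls with FOXP2.

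The shape of each member across the 6 groups was set beside that of the 15144 genes with a mean of at least 1 CPM, as the root mean square (RMS) difference between centred group means of log2 CPM. The genes most like the PER genes were KLF10 (0.0885) and TICAM1 (0.107) for PER1, GET4 (0.0559) and RNASEK (0.0905) for PER2, and PIDD (0.0434) and WDR31 (0.0552) for PER3. For CRY1 they were GRB2 (0.0373) and ARF1 (0.0458), and for CRY2 C1orf162 (0.0601) and ITPKC (0.0710). BHLHE40 was nearest to TGFBI (0.0963) and ZBTB20 (0.110), and ARNTL to ELF1 (0.0484) and UFL1 (0.0560). The RMS difference is not scaled by a gene's range, which was widest for the other 3 members. NR1D1 was nearest to ZNF844 (0.219) and HIST1H3D (0.221), DBP to NAALAD2 (0.167) and RGS16 (0.232), and BHLHE41 to PODNL1 (0.399) and ITGB8 (0.400). Within the clock genes, PER2 and CRY2 were the most alike, with an RMS difference of 0.127, and CRY2 ranked 25 of 15144 in likeness to PER2. PER1 ranked 25 in likeness to NR1D1 (0.384), while the nearest member to CRY1, CRY2 (0.300), ranked 4176. The nearest member to ARNTL, PER3 (0.3475), ranked 5571. For PER3 and BHLHE40 it was ARNTL (0.3475 and 0.547), at ranks 2179 and 2229. For CRY2 and PER1 it was PER2 (0.127 and 0.318), at ranks 38 and 608. For BHLHE41 it was DBP (0.902), at rank 376, and for DBP it was PER3 (0.613), at rank 785. These are descriptions over 6 group means, and over the 30 libraries the nearest 2 genes were the same for NR1D1 and DBP and changed in at least 1 gene for the other 8.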

How the data were processed

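RNA was measured in 30 U2OS libraries by paired-end sequencing of stranded poly(A) mRNA, per the labels' protocols. The authors deposited whole-number counts per gene, 1 column per library and not normalised. Of tools and builds, hg19, DESeq2, Subread, featureCounts and STAR 2.6.1a are named in the submitters' processing notes. Annotation release and strand setting: not given in the sources used here. No column of another series was present (0 columns left out).

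In R 4.3.3, genes were filtered with edgeR 4.0.16 (filterByExpr over 6 groups, 18485 kept), scaled by TMM (trimmed means of M values) and fitted with edgeR's quasi-likelihood test (robust, 30 libraries, 1 mean per group). The 12 comparisons, 9 between pairs of groups and 3 interactions, were each adjusted over all tested genes by Benjamini-Hochberg, with a threshold of 0.05. The SE is the size of the log2 fold change divided by the square root of F. CPM use the scaled library sizes, and log2 CPM for likeness a prior count of 2. The biological coefficient of variation was 5.62%. The labels call the libraries of a group biological replicates and say nothing of separate cultures or passages, so p-values measure the spread between these libraries, which may be technical. All replicate pairs differed by more than sampling noise (chi-square of at least 1.39 per gene with 20 counts or more).

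The rule for named genes takes all 10 members, FOXP2, AXIN2 and LEF1 as checks, up to 6 called genes of largest change per comparison from the list of other clock genes, the 2 genes most like each member, and its nearest member. The members and lists were chosen with earlier results of these data known. From the lists, 1 leukocyte marker and 1 other clock gene, which was too low to test, are not reported here, and the other leukocyte markers are given as a sum. LEF1 rose by 1.65 with CHIR against mock cells. Genes overlapping a member on the opposite strand were looked up in GENCODE 29 (GRCh38) and promoters in RefSeq (GRCh38.p14), for bases and motifs only. Alternatives were a replicate block, the compared groups alone, DESeq2 1.42.0, DESeq2 size factors, FOXP2 left out of library sizes, no filter or a minimum mean of 1 CPM, leaving out each library in turn, likeness over 30 libraries and, chosen after seeing the data, a fit without the 3 libraries that stood apart. Tested on simulated data made for WT FOXP2 against mock (17810 genes), the edgeR step recovered 44% of genes changed 1.2-fold, 84% at 1.5-fold and 100% at 2-fold and 4-fold. The simulation changed 50 genes at each fold and left 17610 unchanged, whereas 81.6% of genes were called in the data. Its shares therefore do not give the sensitivity in these data.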

Additional observations from a re-analysis of the deposited data

Results flagged for a closer look

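In 6 of 60 sets of 5 libraries (10 genes in 6 groups), 1 library lay far from the other 4 by Dixon's test, which marks about 1 set in 20 by chance. PER1 was at 57.0 CPM in WT FOXP2 replicate 1, against 64.7 to 67.2 CPM in the other 4, and NR1D1 in the same library was at 76.6 CPM, against 88.5 to 90.4 CPM. CHIR replicate 1, a library that stood apart over all genes, had CRY1 at 47.8 CPM, against 42.0 to 43.1 CPM, and DBP at 5.29 CPM, against 7.33 to 8.15 CPM. CRY1 was at 68.0 CPM in WT FOXP2 + CHIR replicate 2, against 62.0 to 63.6 CPM, and BHLHE41 at 9.08 CPM in WT FOXP2 replicate 4, against 8.28 to 8.43 CPM. With CHIR replicate 1 left out, the change with CHIR against mock cells was 0.18 for CRY1 (adjusted p = 0.000197) and -1.99 for DBP (adjusted p = 4.2e-33).

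The response to CHIR differed between transfection states in 17 tests of a difference between log2 fold changes. With WT FOXP2 against no FOXP2 plasmid the differences were 4.43 for BHLHE41, 3.51 for DBP, 0.77 for CRY2, 0.71 for PER2, 0.71 for PER3, 0.65 for NR1D1 and -0.29 for ARNTL. With dhelix FOXP2 against no FOXP2 plasmid they were 3.88 for BHLHE41, 2.37 for DBP, 0.72 for PER2, 0.71 for CRY2, 0.60 for PER3, 0.49 for NR1D1, -0.22 for CRY1 and -0.46 for ARNTL. With dhelix against WT FOXP2 they were -1.13 for DBP and -0.55 for BHLHE41.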

How the results depend on the processing

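The counts of members called stayed within 1.5 times the reported counts under every alternative, except the interaction of the helix deletion with CHIR, at 4 with the compared groups alone against 2. With no filter, dhelix against WT FOXP2 gave 5 against 7. With each library left out the counts were 7 to 8 for CHIR against mock, 6 to 8 for dhelix FOXP2 + CHIR against dhelix FOXP2 and for dhelix against WT FOXP2, 8 to 9 for WT FOXP2 + CHIR against WT FOXP2 and for the interaction of dhelix FOXP2, 7 to 8 for that of WT FOXP2 and 2 to 3 for that of the deletion; the other 5 did not move. Of 2460 recomputed fold changes, 2380 kept direction and call, 14 lost a call, 12 gained one and 54 changed sign, of which 0 had been called.

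Deviations from the group mean in same-numbered libraries correlated at r = -0.163 to 0.253. Differently numbered libraries were not compared, so these values cannot show whether the numbers mark a shared batch. With the replicate block the counts were 8 for CHIR against mock, 10 for WT FOXP2 and 9 for dhelix FOXP2 against mock, 7 and 8 for dhelix against WT FOXP2 without and with CHIR, 10 and 10 for the constructs against CHIR, 9 and 7 for CHIR in WT and dhelix FOXP2 cells, and 7, 8 and 2 for the interactions, as without it.

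Uncalled values near 0 that changed sign are listed here, and the cause was not tested. With no filter and at 1 CPM, genes at large shifted too. With no filter the median shift was -0.0895 for CHIR in dhelix FOXP2 cells and -0.0280 in WT FOXP2 cells. It was 0.0675 for dhelix against mock and -0.0615 for the deletion's interaction. At 1 CPM it was -0.0578 for CHIR against mock, -0.0249 for the deletion's interaction, and 0.0742 and 0.0493 for those of WT and dhelix FOXP2. PER1, interaction of dhelix FOXP2: 0.00337 with groups alone, 0.00983 with DESeq2, 0.00663 with its size factors, 0.0261 without FOXP2, 0.0499 at 1 CPM, 0.00586 with the replicate block and -0.114 to 0.0751 with libraries left out. PER2, interaction of the deletion: -0.00482 with groups alone, -0.0140 at 1 CPM, -0.0505 with no filter, -0.0235 without 3 libraries and -0.0248 to 0.0249 with libraries left out. PER2, CHIR against mock: -0.0130 at 1 CPM and -0.00177 to 0.0616 with libraries left out. CRY2, dhelix against mock: 0.0139 with groups alone, 0.0445 with no filter, 0.00923 without 3 libraries and -0.0603 to 0.00943 with libraries left out. CRY1, CHIR in dhelix FOXP2 cells: -0.0564 with no filter and -0.0168 to 0.0567 with libraries left out; CRY1, dhelix against WT FOXP2 with CHIR: -0.0455 to 0.000102. ARNTL, CHIR in WT FOXP2 cells: -0.00472 with no filter and -0.0170 to 0.0422 with libraries left out. BHLHE40, interaction of WT FOXP2: 0.0413 at 1 CPM and -0.0458 to 0.0167 with libraries left out.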
